A study of Mus musculus with 28 samples.

Results

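IRF, BATF and ETS transcription factors were followed across the cultures that lead naïve CD4+ T cells towards Th9 cells, the helper T cells that make IL-9. The 9 genes taken were *Irf4*, *Irf8*, *Irf1*, *Batf*, *Batf3*, *Spi1*, *Etv5*, *Etv6* and *Ets1*. They were chosen by name as members of these families, with earlier results of these data known. All 9 were found among the 24089 genes of the deposited RNA-seq table. Naïve CD4+ CD62L+ T cells came from young adult *Tgfbr1* f/f *Ert2-cre*+ mice of both sexes on a C57BL/6 background, and every mouse carried both alleles. Mice given oil served as WT, and mice given tamoxifen, which lets the Cre enzyme cut the floxed gene of TGF-β receptor I in any cell that carries the transgene, served as *Tgfbr1* KO. KO against WT is therefore also tamoxifen against oil. Effects of the drug, of receptor loss in other cells and of receptor loss in the T cells cannot be told apart. Cells of 3 mice per genotype were activated through CD3 and CD28 and cultured with no added cytokine (control), with either TGF-β or IL-4, or with the pair (TGF-β + IL-4, below also "both cytokines"), which gave 24 RNA-seq libraries in 8 groups of 3. DNase-seq, which maps open chromatin, gave 4 more libraries, 1 each for the control culture and the culture with both cytokines of either genotype, with no replicate. Replicates of a group are separate mice.

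IRF4 and BATF are partners. BATF, a bZIP protein without an activation domain of its own, pairs with a Jun protein on AP-1 sites, and IRF4 or IRF8 joins this pair on composite AP-1-IRF elements, whereas PU.1, the product of *Spi1*, recruits the same IRF proteins to ETS-IRF elements. IRF4, BATF, PU.1 and ETV5 are known to bind or activate *Il9* in Th9 cells, IRF1 is known to activate it downstream of IL-1β, and IRF8 has been placed with IRF4, BATF, PU.1 and ETV6 in one complex on the gene. BATF3 is best known from dendritic cells, where it acts with IRF8, and ETS1 is a constitutive ETS factor of T cells. IL-4 acts through STAT6 and TGF-β through the Smad proteins.

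The headings of the RNA-seq table could not be taken at face value. Read counts published for 8 of the WT libraries, replicates 1 and 3 of each culture, were set against each column by the genes listed at 0. All 8 matched the column at the place that the library number gives, and 2 of the 8 matched the column headed with their own name. The best column agreed on at least 99.85% of the genes compared and the second best on at most 85.79%. The 24 columns were therefore read by position, in the order of the library numbers, with positions up to 12 as WT and those from 13 as KO, and with each run of 4 columns as 1 mouse in the order control, TGF-β, IL-4 and the pair. The reading moved 20 of the 24 columns away from their heading. For the 4 WT columns of replicate 2 and the 12 KO columns no counts were at hand, so their culture rests on this order alone, and only results without replicate 2 in WT rest wholly on matched columns. Read in this way, WT *Tgfbr1* stood at 3.02, 3.25 and 3.31 RPKM (reads per kilobase of a gene and scaled to the mapped reads of the library) in control, at 13.9, 14 and 14.5 under TGF-β, at 3.69, 3.48 and 3.94 under IL-4 and at 17.6, 19.5 and 20.7 under the pair, while the 12 KO libraries had 2.32 to 5.18. The KO and WT control libraries thus overlapped, and a value for the whole gene does not resolve the floxed part. *Il9* itself stood at 9.93, 10.9 and 8.15 RPKM in WT control, at 45.9, 45.2 and 40.1 with TGF-β, at 13, 14.6 and 17.4 with IL-4 and at 36.1, 33.6 and 34.1 with both, and it was below every WT library in all KO libraries, from 0.25 to 2.72. Library depth, read from the steps of the low values and relative to the last WT column, was between 0.826 and 1.66 in WT and between 0.794 and 1.40 in KO. Summed RPKM of 7 CD4 T cell markers lay between 1297 and 1741 in every library, while 5 B cell markers summed to between 8.14 and 33.8 and 5 monocyte markers to between 0.232 and 18.4.

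Across all 24 libraries the factors covered a wide range of levels per length. *Irf8* was the highest, from 177 to 463 RPKM, followed by *Batf* (52.1 to 139.6), *Irf4* (51.3 to 111.9), *Irf1* (50.2 to 96.9) and *Ets1* (33.6 to 74.3). *Etv6* lay between 7.31 and 14.8, *Batf3* between 1.78 and 21.3, *Spi1* between 0.618 and 4.55 and *Etv5* between 0.75 and 1.90. *Batf3* had the widest span, with a highest library 12 times its lowest, against 1.93 times for *Irf1*. Differences were tested with limma on log2(RPKM + 1), over all genes whose mean reached 1 RPKM in the compared groups. Calls needed a Benjamini-Hochberg adjusted p below 0.01 together with a fold change above 1.5. On this scale the changes of the low genes *Spi1*, *Etv5* and *Batf3* come out smaller than those of their RPKM. All 9 factors passed the filter in every comparison of WT cultures, and *Spi1* or *Etv5*, or both, failed it in 4 others, which are named below. Groups of 3 libraries without overlap were common. Over control they were found for 38.5%, 24.3% and 54.4% of all tested genes in WT with TGF-β, IL-4 and both, and for 7.46%, 25.7% and 20.8% in KO. Both cytokines against TGF-β or IL-4 alone in WT gave 39.6% and 56.5%. KO against WT gave 35.4%, 51.5%, 33.6% and 49.1% in control, TGF-β, IL-4 and both.

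**Figure D1:**
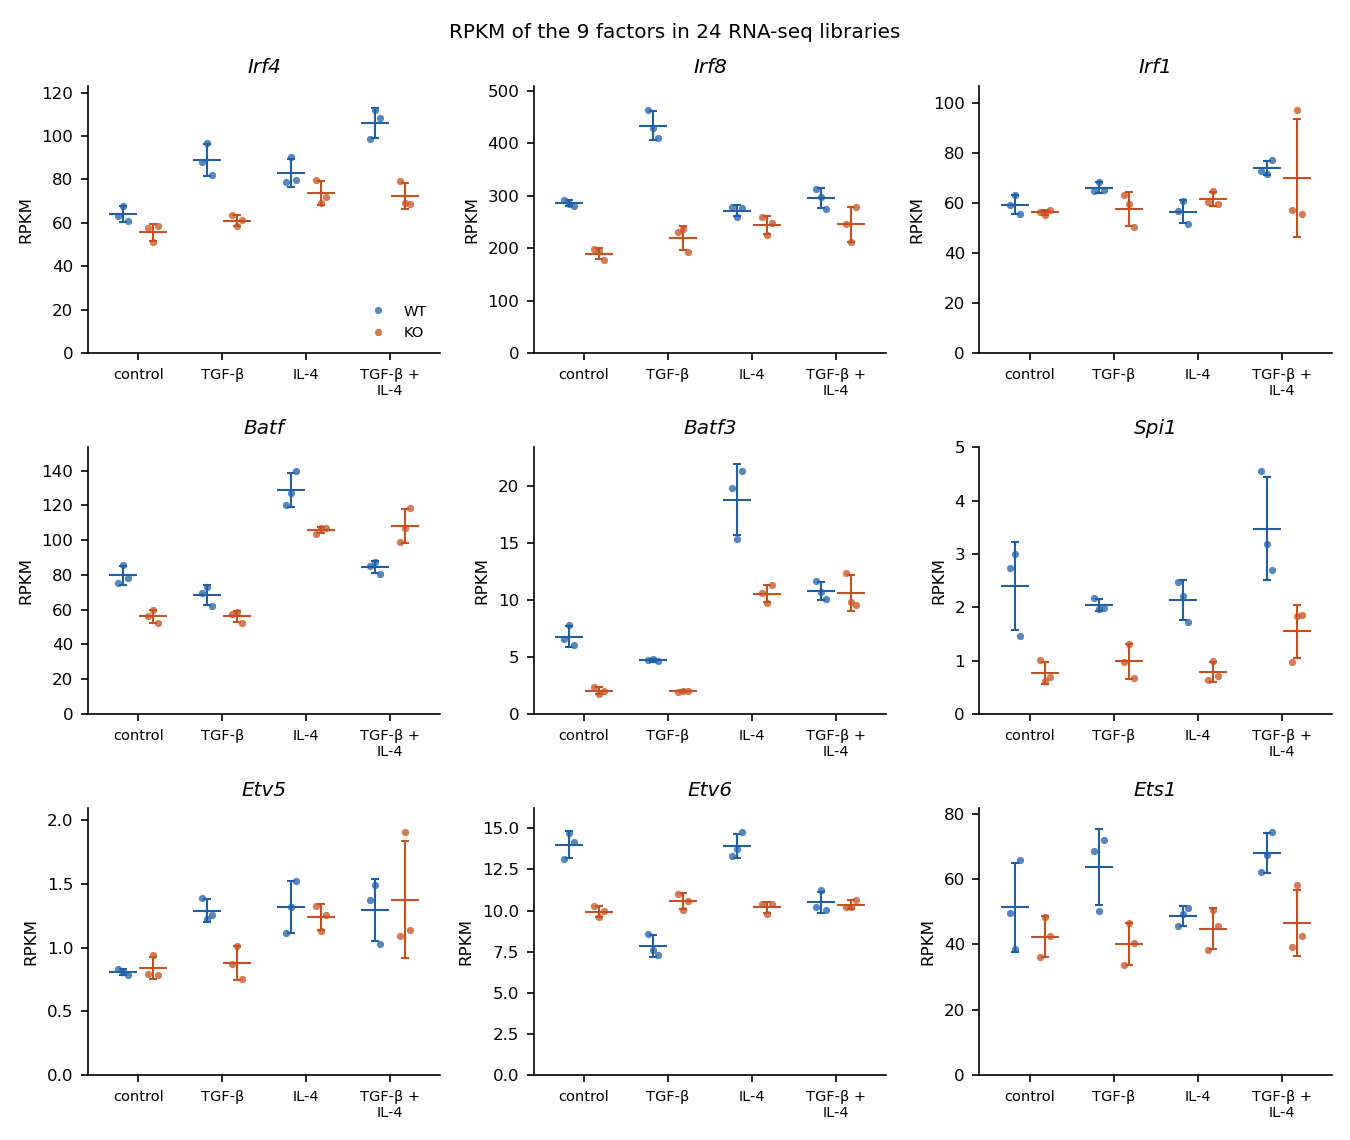
RPKM (y axis, linear, from 0) of each factor in the 4 cultures (x axis) of WT (blue) and KO (orange) cells, with points for the 3 libraries of a group and bars for the mean ± SD. *Irf8* was highest in the 3 WT TGF-β libraries (409 to 463 RPKM), *Batf* and *Batf3* were highest in the 3 WT IL-4 libraries, and *Etv6* was lowest in the 3 WT TGF-β libraries (7.31 to 8.57 RPKM).

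In WT cells 2 factors were called with each cytokine and 2 with the pair. With TGF-β alone *Irf8* rose and *Etv6* fell, with IL-4 alone *Batf* and *Batf3* rose, and with both cytokines *Irf4* and *Batf3* rose over control. The share of all tested genes called was 5.71% with TGF-β, 1.29% with IL-4 and 9.27% with both, against 2 of the 9 factors in each comparison. Without replicate 1 these shares were 3.03%, 0.124% and 8.76%, and without replicate 2 that with IL-4 was 0.755%. The median log2 change over the 9 factors was 0.16 with TGF-β, −0.01 with IL-4 and 0.34 with both, beside 0.01, 0.01 and 0.03 over all tested genes. The 3 comparisons share the WT control libraries.

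**Figure D2:**
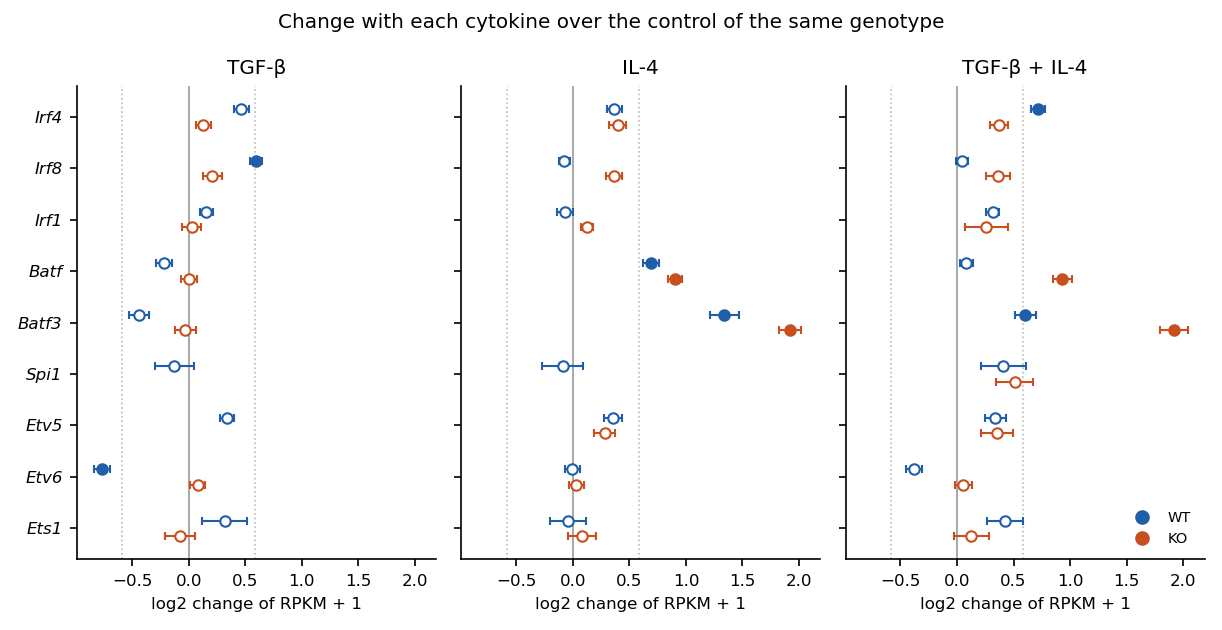
Log2 change of RPKM + 1 (x axis) of each factor with TGF-β, IL-4 or both, over the control of the same genotype, in WT (blue) and KO (orange) cells, with limma estimates from 3 libraries a group as points (filled where called), standard errors as bars and dotted lines at a fold change of 1.5. *Batf3* with both cytokines lies at 0.60 in WT and 1.92 in KO.

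Among the IRF factors, *Irf4* rose with both cytokines in WT cells, and its changes with single cytokines were not called. *Irf4* (ENSMUSG00000021356.3, mm9 chromosome 13, 30841095 to 30858796, plus strand) had 63.2, 68.0 and 60.9 RPKM in WT control, 87.9, 96.6 and 82.2 with TGF-β alone, 78.8, 90.2 and 79.7 with IL-4 alone and 98.5, 111.9 and 108.1 with both. All 3 libraries with both cytokines were above all others, the single cytokine groups overlapped each other, and all of these were above every control library. The log2 change with both cytokines was 0.72 (SE 0.06, adjusted p = 3.15e-05). With TGF-β alone it was 0.47 (SE 0.07, adjusted p = 0.00249) and with IL-4 alone 0.37 (SE 0.07, adjusted p = 0.0195), so TGF-β passed the p threshold but not the fold threshold and IL-4 neither. The interaction of the cytokines was −0.11 (SE 0.10, adjusted p = 0.527), which was not called. The call with both cytokines held in all 12 alternatives that kept the reading of the columns. In KO cells *Irf4* stood at 57.6, 51.3 and 58.4 RPKM in control, at 63.6, 58.4 and 61.2 with TGF-β, at 79.9, 69.2 and 71.9 with IL-4 and at 79.3, 69.2 and 68.7 with both. No KO library reached the lowest WT library with both cytokines, and the highest KO levels were those with IL-4, with or without TGF-β, whose groups overlapped. KO lay below WT by 0.53 (SE 0.07, adjusted p = 0.000351) under TGF-β and by 0.55 (SE 0.08, adjusted p = 0.00125) under both cytokines, in each case under the fold threshold, and the latter passed it with quantile normalization (−0.63) and without replicate 1 (−0.67).

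*Irf8*, the most abundant of the 9, rose in WT cells with TGF-β alone and was lower in KO than in WT cells in control and under TGF-β. *Irf8* (ENSMUSG00000041515.3, mm9 chromosome 8, 123260258 to 123280594, plus strand) had 291, 285 and 281 RPKM in WT control and 463, 428 and 409 with TGF-β. With IL-4 the values were 279, 260.1 and 276, and with both they were 312, 298 and 275. The TGF-β libraries thus stood apart above all others, and the libraries with both cytokines overlapped those of control. The log2 change was 0.60 (SE 0.05, adjusted p = 0.000178) with TGF-β and 0.05 (SE 0.06, adjusted p = 0.546) with both. The difference between both cytokines and TGF-β alone was −0.55 (SE 0.06, adjusted p = 0.000442), under the fold threshold, and the interaction of the cytokines was −0.48 (SE 0.08, adjusted p = 0.00328), also under it. The rise with TGF-β lies just past a fold of 1.5 and was not called with median ratio scaling (0.58) or without replicate 1 (0.56, adjusted p = 0.0103). In KO cells *Irf8* was lower without any added cytokine, at 198, 194 and 177 RPKM in control, where no library overlapped WT control and the log2 difference was −0.59 (SE 0.06, adjusted p = 0.000653). That call was lost without replicate 1 (adjusted p = 0.0231) and without replicate 3 (−0.55). With TGF-β the KO libraries had 231, 236 and 193 RPKM, all below every WT TGF-β library by a wide margin, with a difference of −0.98 (SE 0.08, adjusted p = 3.16e-05) that was called in all 11 alternatives on the same reading. Under IL-4 the KO values were 259, 226 and 248 and under both cytokines 246, 211 and 279, with differences from WT of −0.15 (SE 0.06, adjusted p = 0.138) and −0.27 (SE 0.10, adjusted p = 0.0713).

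*Irf1* (ENSMUSG00000018899.9, mm9 chromosome 11, 53583516 to 53591876, plus strand), a factor induced by interferons, was called in none of the 16 comparisons. It had 58.9, 63.1 and 55.7 RPKM in WT control, 64.7, 68.4 and 65.1 with TGF-β, 56.9, 60.8 and 51.7 with IL-4 and 72.7, 71.6 and 77.1 with both. The libraries with both cytokines lay above those of every other WT culture, with a log2 change over control of 0.31 (SE 0.06, adjusted p = 0.00231) that missed the fold threshold. In KO cells it had 56.4, 55.2 and 57.0 RPKM in control, 63.0, 59.4 and 50.2 with TGF-β, 60.1, 64.7 and 59.5 with IL-4 and 57.0, 96.9 and 55.5 with both, where replicate 2 stood apart.

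A list of 9 further genes, 6 of the IRF family and 3 for IRF2-binding proteins (*Irf2bp1*, *Irf2bp2* and *Irf2bpl*), was tested whole with both cytokines over WT control. None was called with limma, beside 9.27% of all tested genes. The median log2 change of the list was 0.29, beside 0.03 for all tested genes. An adjusted p under 0.01 was reached by 4 of them, *Irf2* (0.38), *Irf9* (0.29), *Irf2bp2* (0.38) and *Irf2bpl* (0.49), named after their values were seen, all short of the fold threshold. Many genes passed the p threshold alone in this comparison, where *Irf1*, at a limma adjusted p of 0.00231, ranked 1727 of 9816 tested genes.

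*Batf* and *Batf3* rose with IL-4 in both genotypes, and in WT cells they were lower with TGF-β added to IL-4 than with IL-4 alone. *Batf* (ENSMUSG00000034266.5, mm9 chromosome 12, 87027619 to 87050037, plus strand) and *Batf3* (ENSMUSG00000026630.4, mm9 chromosome 1, 192922293 to 192932822, plus strand) code for short bZIP proteins of one subfamily. Their promoters are shown because the genes rose and fell together. They are the 250 bases before the annotated start in the RefSeq promoter table of GRCm38, plus strand, at chr12:85686470-85686719 and chr1:191098164-191098413, and capitals mark the ETS core GGAAGT, read on both strands.
Batf promoter: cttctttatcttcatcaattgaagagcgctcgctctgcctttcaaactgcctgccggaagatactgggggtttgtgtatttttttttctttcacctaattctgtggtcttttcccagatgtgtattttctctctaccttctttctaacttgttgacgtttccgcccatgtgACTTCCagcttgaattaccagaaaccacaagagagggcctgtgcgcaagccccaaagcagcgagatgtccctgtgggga
Batf3 promoter: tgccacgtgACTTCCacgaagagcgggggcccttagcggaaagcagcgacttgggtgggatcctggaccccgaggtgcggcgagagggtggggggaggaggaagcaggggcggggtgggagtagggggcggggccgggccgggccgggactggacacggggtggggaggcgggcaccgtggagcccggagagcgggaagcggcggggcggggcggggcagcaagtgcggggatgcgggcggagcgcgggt
The ETS core stood 79 bases before the start in *Batf* and 241 bases before it in *Batf3*, on the reverse strand of both. *Spi1* and *Ets1* had no entry in that table. The other 7 had 10 windows, of which 5 held the core (50.0%), in *Batf*, *Batf3*, *Etv5* and 2 windows of *Irf1*, beside 19.7% of all 32851 promoter windows. None of the 7 held an AP-1 site TGANTCA, an ETS-IRF element (GGAA and GAAA with 2 bases between), an interferon response element (GAAA and GAAA with 2 bases between) or an AP-1-IRF element (GAAA directly before an AP-1 site, or GAAA 4 bases after one), which were found in 6.75%, 2.3%, 2.98%, 0.1% and 0.0974% of all windows.

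In WT cells *Batf* had 75.4, 85.6 and 78.1 RPKM in control, 69.8, 73.3 and 62.3 with TGF-β, 120.0, 127 and 139.6 with IL-4 and 85.0, 87.5 and 80.7 with both. The IL-4 libraries were above all others, and the libraries with both cytokines overlapped control. The log2 change over control was 0.69 (SE 0.07, adjusted p = 0.00106) with IL-4 and 0.08 (SE 0.06, adjusted p = 0.286) with both. Adding TGF-β to IL-4 lowered *Batf* by 0.61 (SE 0.06, adjusted p = 6.47e-05), a call that lay close to the fold threshold and was not made with quantile normalization (−0.535) or without replicate 3 (−0.52). *Batf3* had 6.55, 7.80 and 6.01 RPKM in WT control, 4.71, 4.84 and 4.61 with TGF-β, 19.8, 15.3 and 21.3 with IL-4 and 11.6, 10.7 and 10.1 with both. The 4 groups did not overlap, in the order IL-4, TGF-β + IL-4, control and TGF-β. IL-4 raised *Batf3* by 1.34 (SE 0.13, adjusted p = 0.000811) over control and by 1.04 (SE 0.07, adjusted p = 2.63e-05) on top of TGF-β. With both cytokines it was 0.60 (SE 0.09, adjusted p = 0.00093) above control and 0.74 (SE 0.11, adjusted p = 0.000653) below IL-4 alone. Against TGF-β alone *Batf3* was the 1 factor of 9 called with both cytokines (3.03% of all tested genes), and against IL-4 alone *Batf* and *Batf3* were the 2 of 9 (9.28%). The first of these shares was 1.7%, 4.59% and 1.45% without replicates 1, 2 and 3 in turn. The change of *Batf3* with TGF-β alone, −0.44 (SE 0.09, adjusted p = 0.0118), was not called. In WT cells the interaction between the cytokines was called for none of the 9 factors (1.77% of all tested genes, and 6 factors at an unadjusted p under 0.05), with −0.39 (SE 0.10, adjusted p = 0.0296) for *Batf* and −0.30 (SE 0.16, adjusted p = 0.252) for *Batf3*. The weakest of the 6, *Spi1* at an unadjusted limma p of 0.0288, ranked 2113 of 9794 tested genes. Without replicate 1, IL-4 against control called neither *Batf* nor *Batf3* (adjusted p = 0.0287 and 0.0406), and *Batf3* was not called with both cytokines against IL-4 (adjusted p = 0.0114). *Batf3* with both cytokines against control was called in 8 of 12 alternatives on the same reading, and not with median ratio scaling (0.58), quantile normalization (0.52), without replicate 1 (0.53, adjusted p = 0.0251) or without replicate 3 (0.58).

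In KO cells IL-4 raised both genes, with or without TGF-β in the medium. *Batf* had 56.7, 59.7 and 52.1 RPKM in KO control and 57.5, 58.7 and 52.3 with TGF-β, against 103.6, 107.2 and 106.8 with IL-4 and 99.1, 106.8 and 118.4 with both. *Batf3* had 2.37, 1.78 and 2.0 RPKM in KO control and 1.89, 1.99 and 2.06 with TGF-β, against 10.6, 9.75 and 11.3 with IL-4 and 12.4, 9.78 and 9.55 with both. For both genes the libraries fell into a low pair of cultures without IL-4 and a high pair with it, and within each pair the groups overlapped. *Batf* and *Batf3* were the 2 factors called of the 8 tested with IL-4 against KO control (2.51% of all tested genes), with log2 changes of 0.91 (SE 0.06, adjusted p = 3.34e-05) and 1.92 (SE 0.10, adjusted p = 4.32e-06). With both cytokines they were again the 2 called, of 9 tested (1.92%), with 0.93 (SE 0.09, adjusted p = 0.000571) and 1.92 (SE 0.12, adjusted p = 7.24e-05). *Batf* with both cytokines was not called without replicate 1 (adjusted p = 0.0182) or without replicate 3 (adjusted p = 0.018). With the mouse as a replicate block 88 of all genes were called in that comparison in place of 185, and both factors were still called. Without replicate 1 or 3 the share there was 0.332% or 0.382%, and that with IL-4 was 1.26% without replicate 1. TGF-β alone called none of the 7 factors tested in KO cells with limma (1 at an unadjusted p under 0.05), and 1 of 9563 genes (0.0105%, 2 genes with the replicate block), where *Spi1* and *Etv5* were below the filter. That 1 factor, *Irf8* at an unadjusted limma p of 0.0344, ranked 151 of the 9563. The 2 CD8 T cell markers, *Cd8a* and *Cd8b1*, summed to 14.8 to 16.7 RPKM in KO control, 14.3 to 15.2 with TGF-β, 26.3 to 27.2 with IL-4 and 26.3 to 28.3 with both, and in WT to 24.8 to 26.9, 16.6 to 17.3, 29.9 to 36.3 and 25.3 to 26.7 in the same order. They were thus higher with IL-4 alone than in control in either genotype, without overlap, and their part in the changes of *Batf* and *Batf3* was not tested. The difference between the genotypes was tested as an interaction. For both cytokines against control it was 0.85 (SE 0.11, adjusted p = 0.000237) for *Batf* and 1.32 (SE 0.16, adjusted p = 0.000219) for *Batf3*, with the larger rise in KO, and these were 2 of the 9 factors, against 4.18% of all tested genes. Both calls were lost without replicate 3 (adjusted p = 0.0153 and 0.0114), and the share was 1.25% without replicate 1 and 1.23% without replicate 3. For IL-4 alone the interaction was called for none of the 9 factors (0.0414% of all tested genes, and 3 factors at an unadjusted p under 0.05), at 0.22 (SE 0.10, adjusted p = 0.6) for *Batf* and 0.58 (SE 0.17, adjusted p = 0.292) for *Batf3*. The weakest of the 3, *Batf* at an unadjusted limma p of 0.0415, ranked 663 of 9668 tested genes.

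**Figure D3:**
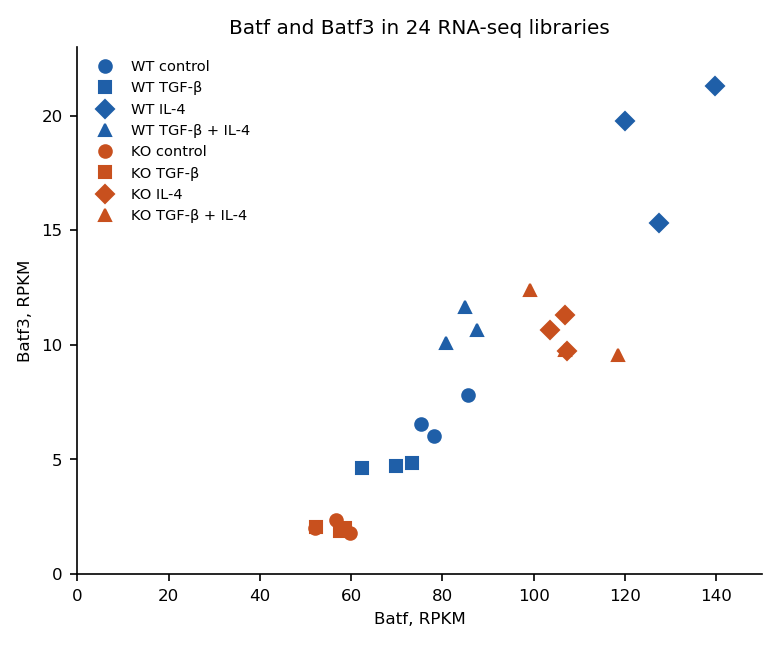
*Batf* (x axis, RPKM) against *Batf3* (y axis, RPKM) in the 24 libraries, both axes linear from 0, with WT in blue, KO in orange and 1 symbol per culture. The 3 KO libraries with both cytokines lie near those of KO IL-4, while the 3 such WT libraries lie at 80.7 to 87.5 RPKM of *Batf*, below all WT IL-4 libraries.

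Between the genotypes, *Batf3* was lower in KO cells except with both cytokines. *Batf3* in KO control lay below every WT control library by 1.35 (SE 0.11, adjusted p = 0.000202), and KO control libraries of *Batf* were below all of WT control with a log2 difference of −0.50 (SE 0.07, adjusted p = 0.00388), under the fold threshold. The *Batf3* difference was −0.94 (SE 0.07, adjusted p = 1.76e-05) with TGF-β. Under IL-4 it was −0.77 (SE 0.11, adjusted p = 0.00263), not called without replicate 1 (adjusted p = 0.0439), without replicate 3 (adjusted p = 0.0224) or with no filter (adjusted p = 0.023). Under both cytokines *Batf3* overlapped between the genotypes, at −0.03 (SE 0.11, adjusted p = 0.837), and *Batf* was higher in KO by 0.35 (SE 0.07, adjusted p = 0.00806), short of the fold threshold. Over the 24 libraries the 2 genes had a Pearson correlation of 0.94 in log2(RPKM + 1), a description of points that share mice and cultures. It was the highest among the 36 pairs of the 9 factors. The genes with the highest correlation to *Batf*, among 9725 compared, were *Atf3*, *Kcnk5* and *Gata3* (0.97, 0.96 and 0.96), and those to *Batf3* were *Hemk1*, *Atp11a* and *Socs1* (0.97, 0.95 and 0.95). *Atf3* codes for a bZIP stress factor, *Gata3* for the main Th2 factor and *Socs1* for an inhibitor of cytokine signalling. Of 10 other AP-1 genes, 6 were tested in the WT cultures. With both cytokines over control 1 of them rose, *Jun*, by 1.07 (SE 0.05, adjusted p = 1.15e-06), and the median log2 change of the 6 was −0.27. Of all tested genes 6.43% rose there.

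Of the ETS factors, *Etv6* fell with TGF-β in WT cells and not in KO cells. *Etv6* (ENSMUSG00000030199.9, mm9 chromosome 6, 133985718 to 134220176, plus strand), a factor known mostly as a repressor, had 13.1, 14.7 and 14.2 RPKM in WT control and 13.3, 13.7 and 14.8 with IL-4. It had 8.57, 7.61 and 7.31 RPKM with TGF-β and 10.2, 11.2 and 10.1 with both. Control and IL-4 libraries overlapped, those with both cytokines were below them and those with TGF-β alone were lowest. TGF-β lowered *Etv6* by 0.77 (SE 0.08, adjusted p = 0.000275), a call made in all 12 alternatives on the same reading. With both cytokines the change was −0.38 (SE 0.07, adjusted p = 0.00215), under the fold threshold. The difference between both cytokines and TGF-β alone, 0.38 (SE 0.08, adjusted p = 0.00909), was also under it. In KO cells it had 10.3, 9.60 and 9.96 RPKM in control, 11.0, 10.1 and 10.6 with TGF-β, 10.4, 9.77 and 10.4 with IL-4 and 10.2, 10.2 and 10.7 with both. The 4 KO cultures overlapped. The change with TGF-β was 0.08 (SE 0.07, adjusted p = 1) in KO cells, and the interaction of genotype and TGF-β was 0.85 (SE 0.10, adjusted p = 7.37e-05), called in all 12 alternatives on the same reading. *Etv6* was the 1 factor called of 8 tested, against 4.71% of all tested genes (2.23% without replicate 1 and 2.89% without replicate 2), with *Etv5* below the filter. The KO level was thus between those of WT control and WT TGF-β, and with both cytokines the genotypes overlapped. KO control was lower than WT control by 0.46 (SE 0.07, adjusted p = 0.00414), and KO TGF-β was higher than WT TGF-β by 0.39 (SE 0.08, adjusted p = 0.0041), both short of the fold threshold.

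*Spi1* (ENSMUSG00000002111.8, mm9 chromosome 2, 90922547 to 90955913, plus strand) was low in every library, and lower in KO than in WT cells. It had 2.74, 3.01 and 1.45 RPKM in WT control, 2.17, 1.97 and 1.99 with TGF-β, 2.47, 2.22 and 1.73 with IL-4 and 4.55, 3.19 and 2.70 with both. The KO values were 1.01, 0.618 and 0.702 in control, 0.974, 1.31 and 0.672 with TGF-β, 0.635, 0.999 and 0.719 with IL-4 and 0.982, 1.83 and 1.85 with both. In each culture the KO libraries were below all WT libraries, where 35.4%, 51.5%, 33.6% and 49.1% of all tested genes did not overlap in either direction. The log2 difference was called under TGF-β (−0.63, SE 0.12, adjusted p = 0.00357) and under IL-4 (−0.81, SE 0.12, adjusted p = 0.00263) and not in control (−0.91, SE 0.18, adjusted p = 0.0152) or under both cytokines (−0.81, SE 0.19, adjusted p = 0.0138). With no filter on low values neither was made (adjusted p = 0.0132 under TGF-β and 0.0186 under IL-4). Under TGF-β it was also lost without replicate 1, without replicate 3 and with quantile normalization, and under IL-4 without any 1 of the 3 replicates. No culture changed *Spi1* past the thresholds in WT cells, with 0.41 (SE 0.20, adjusted p = 0.127) for both cytokines over control. In KO cells it was below the filter with TGF-β and with IL-4 against control.

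The 3 genes with the highest correlation to it over the 24 libraries were *Cd74*, *H2-Ab1* and *H2-Aa* (0.94 each), which serve antigen presentation by MHC class II. In each culture all 3 were lower in KO than in WT libraries without overlap. In control *Cd74* had 113 to 161 RPKM in WT and 59.4 to 67.9 in KO, and with both cytokines 137 to 254 and 70.5 to 131. In control *H2-Ab1* had 32.8 to 46.9 RPKM in WT and 8.41 to 12.6 in KO, and *H2-Aa* had 18.2 to 33.0 and 6.17 to 8.73. The 5 B cell markers, all detected, summed to 14.8 to 23.3 RPKM in WT control and 9.27 to 10.5 in KO control, to 11.2 to 13.4 and 8.14 to 10.6 under TGF-β, to 12.4 to 24.3 and 12.2 to 13.6 under IL-4, and to 15.7 to 33.8 and 15.1 to 26.3 under both. Monocyte markers, 5 of 6 in the table, summed to 3.53 to 6.20 in WT control and 0.232 to 1.70 in KO control, to 6.00 to 18.4 and 0.957 to 10.1 under TGF-β, to 2.71 to 4.37 and 0.880 to 4.07 under IL-4, with *Cd14* at 0 in all 3 KO IL-4 libraries, and to 7.10 to 16.7 and 2.11 to 4.39 under both. The 5 dendritic cell markers summed to 3.89 to 4.45 in WT control and 2.92 to 3.20 in KO control, to 2.78 to 3.89 and 2.59 to 2.90 under TGF-β, to 4.02 to 4.79 and 3.71 to 4.40 under IL-4, and to 4.09 to 4.79 and 3.67 to 4.65 under both. Between the genotypes the B cell sums were lower in KO without overlap in control and under TGF-β, and overlapped in the other cultures. The monocyte sums were lower in KO without overlap in control and under both cytokines, and overlapped in the other cultures. The dendritic cell sums were lower in KO without overlap in control only. Neutrophil markers, 3 of 4 listed, summed under both cytokines to 6.61 to 10.8 in WT and 3.10 to 5.60 in KO. Their ranges overlapped between the genotypes in the other cultures. The 3 NK cell markers went the other way. Their sums were higher in KO without overlap under TGF-β (1.25 to 1.32 in WT and 5.01 to 5.45 in KO). The same held under both cytokines (2.53 to 3.34 and 6.27 to 7.74), and the ranges overlapped in control and under IL-4. The part of such cells in the differences of *Spi1*, and of *Irf8* and *Batf3*, which B cells, monocytes or dendritic cells also express, was not tested, and in bulk RNA fewer cells of a type and less RNA per cell cannot be told apart.

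*Ets1* (ENSMUSG00000032035.7, mm9 chromosome 9, 32443806 to 32565405, plus strand) varied widely between mice. It had 49.6, 38.7 and 65.8 RPKM in WT control, 68.6, 50.3 and 72.0 with TGF-β, 45.5, 49.3 and 51.2 with IL-4 and 62.2, 67.3 and 74.3 with both. The control group overlapped all the others, and the 2 groups with TGF-β overlapped each other. In KO cells it had 36, 48.4 and 42.6 RPKM in control, 33.6, 46.5 and 40.5 with TGF-β, 38.1, 50.7 and 45.5 with IL-4 and 39.2, 58.1 and 42.5 with both. No cytokine changed it past the thresholds in either genotype, and adding TGF-β to IL-4 gave 0.47 (SE 0.07, adjusted p = 0.000671), under the fold threshold. Under TGF-β the KO libraries were below all 3 WT libraries, with a difference of −0.65 (SE 0.15, adjusted p = 0.00955). This call was lost without replicate 1 (−0.46), without replicate 3 (−0.56), with no filter (adjusted p = 0.0338) and without the trend (adjusted p = 0.0163). Under both cytokines KO *Ets1* was also below all WT libraries, as 49.1% of all tested genes did not overlap there. The difference of −0.55 (SE 0.14, adjusted p = 0.018) was not called, but it was without replicate 2 (−0.72, adjusted p = 0.00105). *Etv5* (ENSMUSG00000013089.8, mm9 chromosome 16, 22381382 to 22439792, minus strand) lay at 0.829, 0.808 and 0.787 RPKM in WT control, at 1.39, 1.22 and 1.26 with TGF-β, at 1.12, 1.32 and 1.52 with IL-4 and at 1.37, 1.49 and 1.03 with both. Every WT library with a cytokine was above every WT control library. The log2 changes were 0.34, 0.36 and 0.34 in that order (SE 0.06, 0.08 and 0.09, adjusted p = 0.00801, 0.0517 and 0.0165), all short of the fold threshold, and with a pseudocount of 0.1 the change with TGF-β was called (0.61, adjusted p = 0.00776). In KO cells *Etv5* had 0.794, 0.940 and 0.782 RPKM in control, 0.868, 1.01 and 0.750 with TGF-β, 1.33, 1.13 and 1.25 with IL-4 and 1.09, 1.90 and 1.13 with both, and control and TGF-β overlapped. Of 22 other ETS genes, 13 were tested with both cytokines over WT control and 1 rose, *Elk3*, a serum response partner, by 1.32 (SE 0.06, adjusted p = 6.95e-07), beside a median of 0.21 over the 13. In that comparison 6.43% of all tested genes rose.

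Between the genotypes, which also differ by tamoxifen against oil, the factors that differed were mostly lower in KO. In control cultures 2 of 8 tested factors were called, both lower (2.46% of all tested genes, 1.82% lower in KO), *Irf8* and *Batf3*, with *Etv5* below the filter. Under TGF-β 4 of 9 were called (9.68%, with 6.53% lower), *Irf8*, *Batf3*, *Spi1* and *Ets1*, and under IL-4 2 of 9 (2.99%, with 2.61% lower), *Batf3* and *Spi1*, all lower in KO. With both cytokines limma called none of the 9 (5 at an unadjusted p under 0.05), while 8.44% of all tested genes were called. Such p-values were common there, since *Irf8*, at an unadjusted limma p of 0.0277, ranked 3834 of 9851 tested genes. The median log2 difference over the factors was −0.48, −0.53, −0.17 and −0.13 in that order, beside 0.03, 0.01, 0.03 and 0.01 over all tested genes. Without replicate 1, 1, 2, 0 and 1 factors were called in the same 4 cultures, beside 0.633%, 7.87%, 1.61% and 3.45% of all tested genes, and without replicate 3 the shares under IL-4 and under both cytokines were 1.13% and 3.4%.

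**Figure D4:**
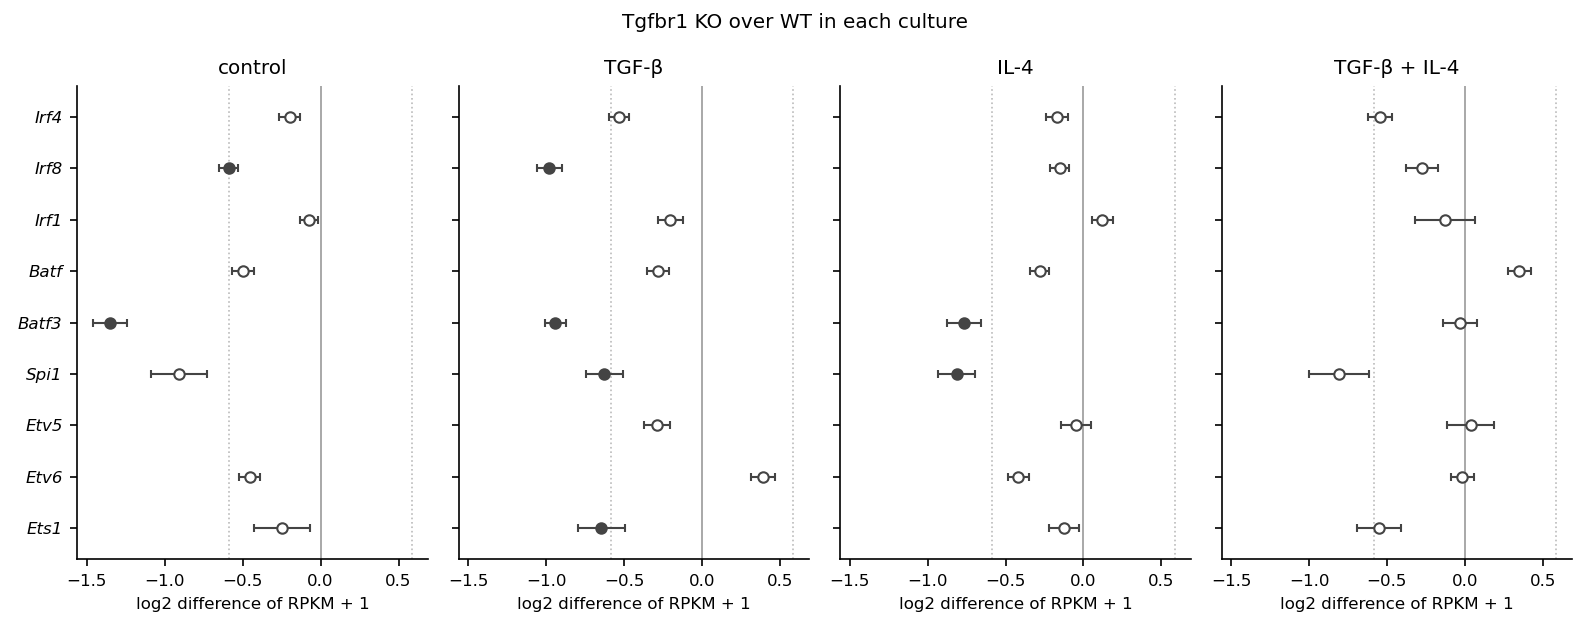
Log2 difference of RPKM + 1 (x axis), KO minus WT, of each factor in the 4 cultures, drawn as limma estimates (filled where called) with standard errors and with dotted lines at a fold change of 1.5. *Batf3* goes from −1.35 in control to −0.03 with both cytokines, and *Etv6* is above 0 under TGF-β only, at 0.39.

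Receptors and other regulators of Th9 cells were also counted, from a list chosen with earlier results of these data known. Of 30 such genes listed, 24 were tested with both cytokines over WT control, where 10 rose and 1 fell, with a median log2 change of 0.35. Of all tested genes 6.43% rose and 2.84% fell in that comparison. *Ccl17*, a chemokine gene, rose by 3.11 (SE 0.22, adjusted p = 8.67e-06), *Tgfbr1* by 2.27 (SE 0.08, adjusted p = 1.12e-07) and *Il9* by 1.75 (SE 0.09, adjusted p = 1.52e-06). *Stat5a* and *Tgfbr2*, which carry cytokine and TGF-β signals, rose by 1.12 (SE 0.05, adjusted p = 9.34e-07) and 1.08 (SE 0.07, adjusted p = 7.45e-06). *Id3*, an inhibitor of E proteins, fell by 1.47 (SE 0.06, adjusted p = 3.82e-07). In KO cells under the same cytokines 6 of 23 tested rose over KO control and 1 fell, beside 1.27% and 0.642% of all tested genes.

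The expression pattern of each factor was also compared with all others of 9725 genes, as a description over the 24 libraries. *Irf4* was most like *Nfatc2*, *Spsb1* and *Npas2* (Pearson r of 0.96, 0.96 and 0.95), and *Irf8* most like *Plod3*, *Actr1b* and *Eif4ebp1* (0.94, 0.94 and 0.92). *Irf1* was most like *N4bp2l1*, *Pik3ip1* and *Tsc22d3* (0.93, 0.91 and 0.90), and *Etv6* most like *Clic4*, *Bhlhe40* and *Il3* (0.90, 0.89 and 0.88). *Ets1* was most like *Map3k1*, *Whsc1l1* and *Ust* (0.93, 0.93 and 0.91). *Etv5* had the lowest values of the 9, with *F2r*, *Glb1* and *Ezr* at 0.81, 0.80 and 0.77.

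Open chromatin was called at the start of most of the factor genes in each condition, while most sites in and around the genes were missing from at least 1 list. A DHS, a DNase I hypersensitive site, within 500 bp of the outermost annotated start of the gene was found for 7 of the 9 factors in WT control, 6 in WT with both cytokines, 8 in KO control and 6 in KO with both. In the same order 86.8%, 85.4%, 85.1% and 82.6% of 8982 expressed genes with 1 gene entry in the annotation had one. *Irf4*, *Irf8*, *Irf1*, *Batf*, *Etv5* and *Etv6* had one in all 4 lists and *Batf3* in none. *Ets1* had one in the control lists alone, at a fold enrichment over the local background of 3.93 in WT and 3.69 in KO, low in both lists. *Irf1*, *Irf8*, *Etv5*, *Etv6*, *Spi1* and *Ets1* have further annotated starts, 2 in all for *Ets1*, which were not searched. An *Ets1* site 59.7 kb inside the gene was called in all 4 lists, at 5.32-fold to 8.04-fold enrichment. Whether it lies at the other start was not tested. *Spi1* was counted in KO control alone because of the window, since its site, centred 665 bp inside the gene, was called in all 4 lists. The genes and their 10 kb flanks held 68 sites, of which 28 were in all 4 lists and 21 in 1 list. The same counts were not made over all DHSs. Whether these numbers, or those per gene below, are unusual was therefore not tested. Each list rests on 1 library of unknown depth, with 44298, 33880, 33665 and 27145 DHSs in the same order, and a site absent from a list was not called there, which does not show that it was closed.

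**Figure D5:**
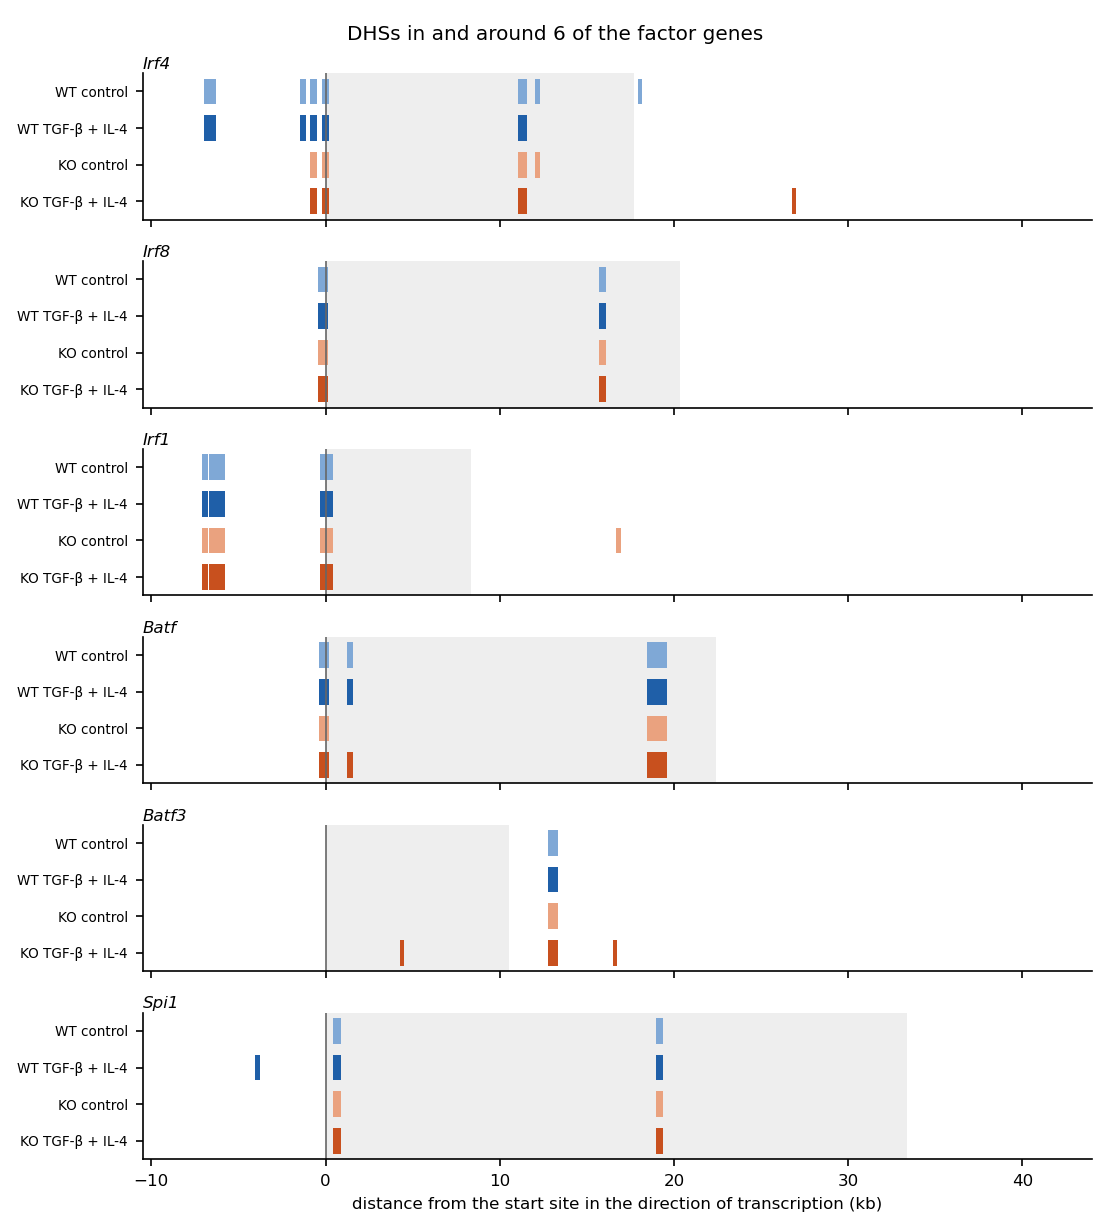
DHSs (boxes) around *Irf4*, *Irf8*, *Irf1*, *Batf*, *Batf3* and *Spi1* by distance from the annotated start in kb (x axis), 1 row per DNase-seq list, 1 library each. Boxes are drawn to the width of the merged site in every list that has a DHS there, grey marks the gene and the line its start; *Batf* has an intronic site near its start in every list but KO control, and *Batf3* has no site at its start.

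*Irf4* had 8 sites, of which 3 were in all 4 lists and 3 in WT lists only. Of the latter, those centred 6634 and 1287 bp before the start were called in both WT lists and neither KO list, low in each list by fold enrichment (ranks of 70.5% and 73.0% for the first and 98.4% and 95.3% for the second, with the strongest near 0%). *Irf8* had 2 sites, both in all 4 lists, at its start and 15.9 kb inside the gene. In *Batf*, 3 sites were called, and the intronic one centred 1387 bp after the start was in every list except KO control, with a fold enrichment of 5.71 in WT control, and with both cytokines of 5.48 in WT and 4.21 in KO. *Batf3* had 1 site in all 4 lists, 13.1 kb after its start and beyond the gene, and 2 in the KO list with both cytokines only, 4390 and 16613 bp after the start, at 4.22-fold and 3.72-fold enrichment. *Etv6* and *Ets1*, the longest genes, had 20 and 23 sites, of which 6 and 8 were in all 4 lists.

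The sites below are shown because they hold letters known to be read by the factors themselves, or in *Batf* by STAT6. All are plus strand sequence of mm9, and capitals mark the match. At *Irf4* it is the AP-1 site TGANTCA in the intergenic DHS centred 688 bp before the start, called in all 4 lists (chr13:30840436-30840536). At *Batf* it is the palindrome bound by STAT6 (TTC and GAA with 4 bases between), searched for after the values were seen, in the intronic site (chr12:87029005-87029105). At *Ets1* it is the AP-1-IRF element with GAAA 4 bases after an AP-1 site, in an intergenic site 129.1 kb after the start and beyond the gene (chr9:32572797-32572857).
Irf4 upstream DHS: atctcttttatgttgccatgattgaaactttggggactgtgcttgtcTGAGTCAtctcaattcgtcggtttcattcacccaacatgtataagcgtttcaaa
Batf intronic DHS: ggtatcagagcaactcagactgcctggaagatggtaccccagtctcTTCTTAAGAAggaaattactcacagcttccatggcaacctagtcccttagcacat
Ets1 downstream DHS: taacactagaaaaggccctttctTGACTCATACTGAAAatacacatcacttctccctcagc
Within 100 bp of the strongest summit, 13 of the 68 sites at the factor genes held an AP-1 site (19.1%), as did 10.7% of the 33880 DHSs in the WT list with both cytokines. The interferon response element was in 7 of the 68 (10.3%, against 4.09%), the ETS-IRF element in 3 (4.41%, against 2.42%), the AP-1-IRF element with GAAA after the AP-1 site in 1 (1.47%, against 0.201%) and that with GAAA before it in 0, against 0.274%. The ETS core was in 13 of the 68 (19.1%, against 24.1%) and the STAT6 palindrome in 4 (5.88%, against 5.99%). Beside the *Batf* site, the palindrome was in *Etv6* sites 32.0 and 184.8 kb after the start and in an *Ets1* site 40.5 kb after the start. Of the 10 promoter windows of the factors 0 held it, against 5.85% of all promoter windows. Most AP-1 matches came from 2 genes, 6 sites of *Etv6* and 6 of *Ets1*, so that they are not independent, and each AP-1-IRF match is also counted as an AP-1 site. A match describes letters and does not show binding.

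Around *Il9*, the gene these factors are known to act on, 3 of the 6 DHSs within 45 kb held an AP-1 site, and none held an ETS-IRF, interferon response or AP-1-IRF element within 100 bp of its summit. *Il9* lies on the minus strand, so sites after its start have lower coordinates. The site centred 13366 bp after the start, in an intron of *Slc25a48*, was called in the WT list with both cytokines alone (chr13:56570259-56570319). The site 5319 bp after the start, intergenic, was called in all 4 lists (chr13:56578311-56578371), and the site 5934 bp before the start, also intergenic, in all but KO control (chr13:56589547-56589607). The letters are from the plus strand of mm9, with the AP-1 site in capitals.
Il9 site after the start, in Slc25a48: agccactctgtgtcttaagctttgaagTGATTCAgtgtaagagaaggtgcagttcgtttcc
Il9 site after the start, intergenic: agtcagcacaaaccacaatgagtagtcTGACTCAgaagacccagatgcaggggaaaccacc
Il9 site before the start: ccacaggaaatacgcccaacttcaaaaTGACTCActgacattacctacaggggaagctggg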

How the data were processed

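RNA was sequenced from Smart-seq2 libraries of 24 cultures and DNase-seq from 4. Per the methods, the authors used Bowtie2 for alignment to mm9, discarded duplicates and poorly mapped reads, and deposited RPKM values per gene, computed with edgeR and scaled by gene length and mapped reads. Per the labels and methods, DHSs were called by MACS in each library; the deposited lists hold for each DHS its −log10 q and its fold enrichment against local background. Tool versions are not given in the sources used here. Depth is known only relative to one library, and unknown for DNase-seq.

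Columns were read in library-number order, as described above. log2(RPKM + 1) of genes with a mean of at least 1 RPKM in the fitted libraries was tested with limma 3.58.1 (trend, R 4.3.3) for 12 pairwise comparisons and 4 interactions, on the compared groups only, with Benjamini-Hochberg adjustment over all genes tested. On simulated data for WT TGF-β + IL-4 against WT control (9804 genes), 91% of 100 genes changed by 1 on the log2 scale and 99% of 100 genes changed by 2 were recovered, with 0 false calls. The noise was normal and independent, and the changed genes came from above a higher mean than the filter. Recovery of smaller changes or of genes near the filter was not tested. The 4 cultures of a genotype used cells of the same 3 mice, so the labels' replicate numbers pair libraries within a genotype; deviations from the group means correlated between cultures of a mouse by −0.089 to 0.553 in WT and −0.297 to 0.415 in KO. Alternatives were the headed columns, a pseudocount of 0.1, no filter or a mean of at least 5, median ratio and quantile scaling, all libraries in 1 fit, no trend, an adjusted p under 0.05, each replicate left out and the mouse as a block.

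The 9 factors were named throughout; of each family list the called genes with the largest change with both cytokines in WT, up to 5 each way, and for each factor the 3 genes most correlated with it. The factors and lists were chosen with earlier results of these data known. Peaks were placed on GENCODE vM1 genes and sequences read with pysam 0.24.0 from mm9 and from the RefSeq promoter table of GRCm38.p6.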

Additional observations from a re-analysis of the deposited data

Results flagged for a closer look

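The responses of 3 factors differed between the genotypes in a test of the difference itself (limma, adjusted over all genes tested). *Etv6* had an interaction of genotype and TGF-β of 0.846 on the log2 scale (SE 0.10, adjusted p = 7.37e-05), from a change of −0.77 in WT and 0.08 in KO cells, and it held in all 12 alternatives on the same reading of the columns. For both cytokines against control the interaction was 0.848 for *Batf* (SE 0.11, adjusted p = 0.000237; 0.08 in WT and 0.93 in KO) and 1.316 for *Batf3* (SE 0.16, adjusted p = 0.000219; 0.60 in WT and 1.92 in KO), each called in 11 of 12 alternatives and lost without replicate 3. All 12 KO columns rest on the library order alone. With 3 libraries a group, no sample was tested for standing apart from its group.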

How the results depend on the processing

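The reading of the columns decided the results. With columns taken as headed, 0 factors were called in each of the 12 comparisons and interactions that had a call, and *Batf3* with both cytokines against IL-4 in WT cells changed sign (0.018 on the log2 scale). On the reading used, median ratio scaling called 1 factor in WT with TGF-β and 1 with both cytokines, each against control. Quantile normalization called 1 in WT with both cytokines against control, 1 against IL-4, and 1 in KO against WT with both cytokines. With a mean of at least 5 RPKM, 1, 2 and 1 factors were called in KO against WT under control, TGF-β and IL-4, where fewer factors were tested, and with no filter 2 under TGF-β and 0 under IL-4. All libraries in 1 fit, or an adjusted p under 0.05, called 1 in KO against WT with both cytokines. Leaving out each replicate gave 1 to 2 factors in WT with TGF-β, 0 to 2 with IL-4 and 1 to 2 with both cytokines against control, and 1 to 2 for both against IL-4. It gave 1 to 2 in KO with both cytokines. In KO against WT it gave 1 to 2 in control, 2 to 4 under TGF-β, 0 to 1 under IL-4 and 0 to 1 under both, and for the interaction of genotype and both cytokines 0 to 2. The interactions of TGF-β and IL-4 in WT and of genotype and IL-4 called 173 and 4 of all genes, and 0 without replicate 1, and KO with TGF-β called 1 and 0 without any 1 replicate; the first gave 91 and 32 genes without replicates 2 and 3, and the second 0 without either. Except where a smaller set of genes or libraries entered the test, the cause was not tested. With the mouse as a replicate block, counts of called factors did not change (2 with TGF-β, IL-4 or both cytokines in WT and 2 with IL-4 or both in KO), and of all genes 88 in place of 185 were called in KO with both cytokines and 2 in place of 1 in KO with TGF-β. Counts of factors with a DHS at the start stayed within 6 to 7 in WT control and 6 to 8 in KO control. At 3 libraries a group, changes close to a fold of 1.5 and those of *Spi1* and *Etv5*, near 1 RPKM, were the least certain.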
